A study of Mus with 16 samples.

Results

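In bulk RNA-seq of mouse epiblast stem cells, 160 of the 116747 transcripts listed were present in cells of the SpretB6 cross and absent in those of 3 other crosses. A transcript was counted as present with at least 10 reads in each of the 4 SpretB6 libraries, and as absent with at most 3 reads in each of the 12 others, after its estimated count in each library was rounded. The 160 members were 0.137% of the transcripts listed and 0.408% of the 39205 that had at least 10 reads in each SpretB6 library. The members were chosen by the read counts themselves, so the contrast between SpretB6 and the other crosses is described here and was not tested.

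Epiblast stem cells are pluripotent cells in the primed state, the state of the embryo's epiblast after implantation. The cells of this series were F1 hybrids, which carry a haploid genome set from each parent, and C57BL/6J was a parent in every cross. The other parent was a wild-derived inbred strain, named by the cross as CastB6, MolfB6, PwkB6 or SpretB6. SPRET strains belong to Mus spretus, a species separate from the house mouse, and the other strains come from house mouse subspecies. Transcript quantification assigns each read to the annotated transcripts that it matches, and a read that matches several is divided among them, so a transcript estimate reflects both the RNA and the sequences it competes with.

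Each cross was sequenced in 4 libraries of ribodepleted total RNA, a method that removes ribosomal RNA and keeps RNA with and without a poly(A) tail. The libraries are named by the numbers in their titles, 1, 3, 5 and 6 for CastB6, PwkB6 and SpretB6, and 1, 2, 3 and 6 for MolfB6. No treatment, age or passage separates the groups in the labels, and the culture and any treatment are given by reference to an earlier publication. The labels do not say whether libraries of a cross came from separate lines, cultures or embryos, so the spread between libraries may be partly technical. Because the samples are bulk, fewer cells with a transcript and less of it per cell cannot be told apart.

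Library totals ran from 42596559 to 72364991 estimated counts, the lowest in PwkB6 1, and the SpretB6 libraries ran from 44203863 in SpretB6 6 to 72364991 in SpretB6 3. The files give Ensembl transcript IDs without gene names, and 0 IDs could be matched to the gene table used here, so the members are named by ID and their functions are not stated. For the same reason the cell type named in the labels was not checked against marker genes, and other genes of a pathway were not counted. No sequence is printed for any member.

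The members together took a small part of each SpretB6 library and almost nothing elsewhere. They held 75821 reads in SpretB6 1, 107717 in SpretB6 3, 81116 in SpretB6 5 and 55403 in SpretB6 6, or 0.133% ± 0.0133 of the estimated counts (SD, n = 4). In the 12 other libraries they held 26 to 52 reads each. On the TPM scale, which divides reads by effective length and sets each library to the same sum, the members summed to 6149 in SpretB6 1, 6320 in SpretB6 3, 5031 in SpretB6 5 and 5187 in SpretB6 6. The mean was 5672 ± 657 TPM in SpretB6 (SD, n = 4), and the sum in the 12 others was 1.65 to 3.74 TPM. The rule fixes the direction of this difference, a lower limit on the members' reads in SpretB6 and an upper limit elsewhere. Only its size beyond these limits is free.

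**Figure D1:**
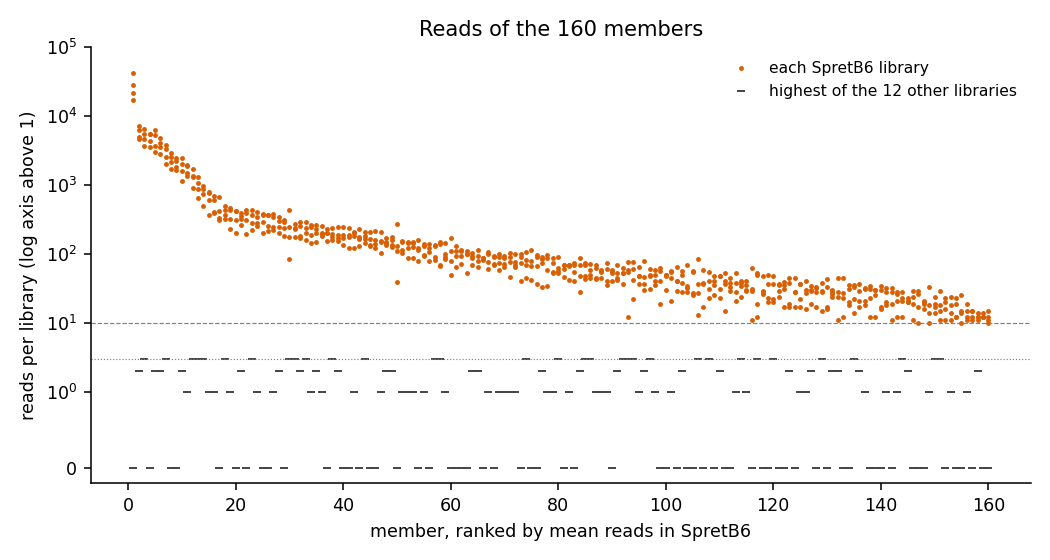
Reads of the 160 members, ranked along the x axis by mean reads in SpretB6. Orange points give each of the 4 SpretB6 libraries, dark dashes the highest of the 12 other libraries, and the lines mark the limits of 10 and 3 reads on an axis that is logarithmic above 1. The highest member stands at 17048 to 41869 reads, apart from all others, and 63 members sit at 0 in all 12 other libraries.

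The summed level rested on few members. The first, ENSMUST00000183090.2, made up 38.5% of the summed mean TPM, the first 6 made up 71.0% and the first 20 made up 88.8%. The classes of mean TPM in SpretB6 held 9 members at 100 TPM or more, 35 from 10 to 100, 77 from 1 to 10 and 39 below 1. The median member stood at 2.87 TPM, close to the median of 2.62 TPM over the other transcripts present in SpretB6. In mean reads per SpretB6 library the members were lower, with a median of 63.25 against 202.25. By rank of TPM among all transcripts in SpretB6, 1 member was in the first 100, 8 in the first 1000 and 44 in the first 10000.

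ENSMUST00000183090.2, of 399 bases, stood at 2583 TPM in SpretB6 1, 2772 in SpretB6 3, 1565 in SpretB6 5 and 1819 in SpretB6 6, and had 0 reads in each of the 12 other libraries. SpretB6 1 and 3 were high and SpretB6 5 and 6 low. Its mean was 2185 ± 584 TPM (SD, n = 4), which ranked 37 among all transcripts in SpretB6. With 3 reads over the 12 other libraries together as the limit that a count of 0 allows, its CPM (reads scaled to the library totals) was at least 112901-fold higher in SpretB6. That bound covers counting error only, since a transcript that shares reads can reach 0 through how they were divided. Like the bounds below, it does not allow for the choice of members by the same reads or for spread between libraries. Without this transcript the other 159 members summed to 3487 ± 90.5 TPM (SD, n = 4), so the spread of the total between SpretB6 libraries came mostly from it.

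ENSMUST00000117142.2, of 332 bases, stood at 626 TPM in SpretB6 1, 647 in SpretB6 3, 615 in SpretB6 5 and 686 in SpretB6 6. Among the others it had 1 read in MolfB6 6 and 2 in PwkB6 6, and 0 in the remaining 10 libraries. The SpretB6 mean of 643 ± 31.2 TPM (SD, n = 4) corresponds to a ratio of CPM of 24062, with a 95% Poisson interval of 8234 to 116678 from the few reads elsewhere. The rule capped those reads, so this ratio and interval, like those below, do not allow for the choice of members. The 4 SpretB6 libraries lay close together here, unlike those of the first member.

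ENSMUST00000222676.2, of 375 bases, stood at 474 TPM in SpretB6 1 and in SpretB6 3, 437 in SpretB6 5 and 431 in SpretB6 6, with a mean of 454 ± 23.2 (SD, n = 4). It had 6 reads in the 12 others, 3 of them in PwkB6 6 and 1 each in CastB6 6, PwkB6 3 and PwkB6 5. The ratio of CPM was 10519, with a Poisson interval of 4833 to 28662. It ranked 287 among all transcripts in SpretB6, and all but 1 of its few reads elsewhere lay in PwkB6.

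ENSMUST00000193963.2, of 334 bases, stood at 262 TPM in SpretB6 1, 264 in SpretB6 3, 250 in SpretB6 5 and 247 in SpretB6 6, with a mean of 256 ± 8.6 (SD, n = 4). ENSMUST00000120833.2, of 573 bases, stood at 236, 215, 236 and 220 TPM in the same order, with a mean of 227 ± 10.6 (SD, n = 4). Both had 0 reads in all 12 other libraries, and the lower bounds of the fold were 9728 and 19646. Their libraries in SpretB6 differed by little, and no SpretB6 library came near the others.

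ENSMUST00000120419.2, of 179 bases, was the shortest member. It stood at 287 TPM in SpretB6 1, 269 in SpretB6 3, 295 in SpretB6 5 and 205 in SpretB6 6, with 1 read in MolfB6 2 and 0 in the other 11 libraries. Its TPM depends strongly on the length correction: a mean effective length of 47.2 bases, or 26.4% of its length, turned 366 to 781 reads into a mean of 264 ± 40.7 TPM (SD, n = 4). ENSMUST00000120833.2 had 3519 to 5574 reads and a lower TPM. These 2 members therefore stand in opposite order in TPM and in reads, whereas the 3 members of highest TPM were in the same order on both scales.

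**Figure D2:**
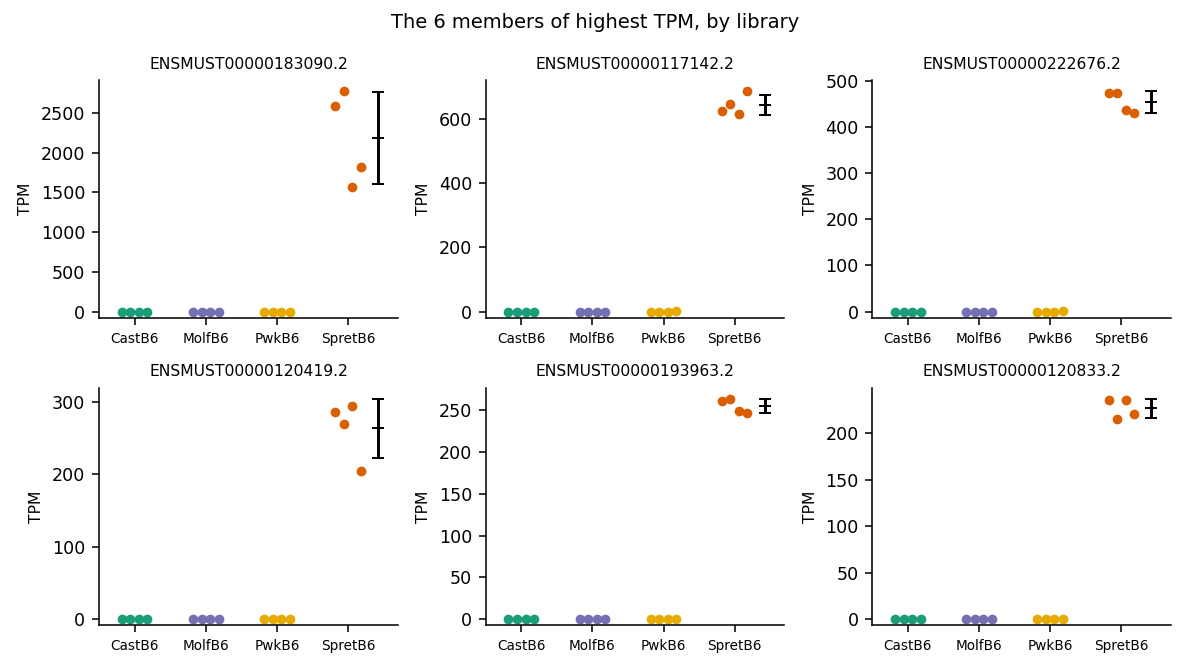
TPM in each library for the 6 members of highest mean TPM, with 1 panel per transcript, 1 point per library and the SpretB6 mean ± SD (n = 4) as a bar at the right. The 12 other libraries lie at or next to 0 in each panel, and the SpretB6 libraries of ENSMUST00000183090.2 spread from 1565 to 2772.

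The members were short. Their median length was 639 bases, with quartiles of 411 and 1082 and a range from 179 to 6525. The other transcripts present in SpretB6 had a median of 2092 bases, and all transcripts listed had one of 1049. Members of up to 500 bases numbered 65, or 40.6%, against 5.63% of the other transcripts present in SpretB6 and 17.5% of all listed. Members of up to 1000 bases numbered 113, or 70.6%, against 28.6% and 48.8% in the same order. Length was not an input to the rule, but its limits are in reads. At the same TPM a shorter transcript has fewer reads, so it meets the limit for absence more easily and that for presence less easily. How far this shaped the lengths was not tested. Members with higher TPM were shorter, with a median of 375 bases at 100 TPM or more and 1280 bases below 1 TPM; since TPM divides by effective length, and at least 10 reads were required, this order is partly built into the scale.

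The share of transcripts present in SpretB6 that were members fell with each class of length. It was 13.8% up to 250 bases (9 of 65 transcripts), 2.55% over 250 to 500 (56 of 2200), 0.534% over 500 to 1000 and 0.428% over 1000 to 2000. It was 0.0857% over 2000 to 4000 bases and 0.0405% above, where 3 of 7402 transcripts were members. The 9 members of up to 250 bases had mean effective lengths from 47.2 to 102 bases, and their mean TPM ran from 12.2 to 264.

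The longest member, ENSMUST00000228382.2 of 6525 bases, was among the lowest. It had 31 reads in SpretB6 1, 29 in SpretB6 3, 63 in SpretB6 5 and 11 in SpretB6 6, a mean of 0.102 ± 0.0566 TPM (SD, n = 4), and 0 reads in the 12 others. SpretB6 5 was high and SpretB6 6 low. All its estimates were whole numbers.

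The version number after the point of the transcript ID, which counts revisions of the annotated model, was 2 in 130 of the 160 members, or 81.3%. Among the other transcripts present in SpretB6 it was 2 in 40.8%, and among all those listed in 53.5%. The remaining 30 members carried 3 (12 members), 8 or 9 (4 each), 5 (3), 4, 6 or 7 (2 each) and 11 (1). No member carried version 1, and 99.9% of all transcripts listed carried a higher one. Members were more frequent among transcripts of version 2 in each of the 6 length classes, from 14.5% against 10.0% up to 250 bases, where only 10 transcripts carried another version, to 1.01% against 0.0825% over 1000 to 2000 bases. Over all lengths the shares were 0.810% and 0.130%.

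**Figure D3:**
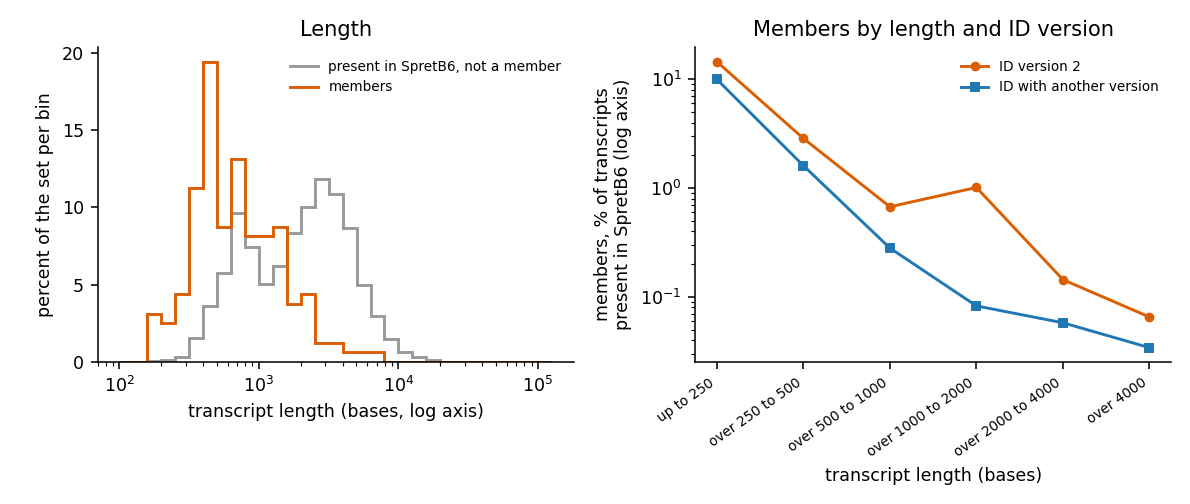
Left, the length of the 160 members (orange) and of the other transcripts present in SpretB6 (grey), as percent of each set per bin on a log axis. Right, members as percent of the transcripts present in SpretB6, by class of length and by version of the ID, on a log axis. Both lines fall from the shortest to the longest class, except that version 2 rises from 0.673% to 1.01% between over 500 and over 1000 bases, and version 2 lies above the other versions in each class.

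A further property was looked at after the lengths had been seen, namely whether a length is a multiple of 3, as a model that holds a coding sequence alone would be. Of the members, 74 had such a length, or 46.3%, against 34.3% of the other transcripts present in SpretB6. The difference lay in short members. Up to 1000 bases the share was 51.3% of 113 members and 35.8% of all transcripts present in SpretB6. Above 1000 bases it was 34.0% of 47 members and 33.8%. Among transcripts present in 1 other cross only, such lengths were held by 9 of 21 in CastB6 (42.9%), 9 of 14 in PwkB6 (64.3%) and 2 of 4 in MolfB6. These sets are small, but a share above 34.3% was thus not seen in SpretB6 alone.

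Most members shared reads with other transcripts. An estimate is fractional when reads were divided, and 149 of the 160 members had a value more than 0.001 from a whole number in at least 1 of the 16 libraries. In 137 members all 4 SpretB6 values were fractional, and in 12 members 1 to 3 of the 4 were whole. Of the 336 values above 0 that members had in the 12 other libraries, 34.8% were whole.

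The 11 members with whole estimates in all 16 libraries were 6.88% of the members, against 2.14% of the other transcripts present in SpretB6. With at least 50 reads for presence the members' share was 2.78%, so its size depends on that limit. Transcripts with reads in few libraries have fewer chances of a fractional value, so these shares are not like for like. Over the 4 SpretB6 libraries alone, where both sets had reads, the shares were 6.88% and 3.51%. The members had fewer reads there, with medians of 63.25 against 202.25, so these shares are not matched for reads. Over all 16 libraries, estimates were whole in 3 of 21 transcripts present in CastB6 only, 2 of 14 in PwkB6 only and 1 of 4 in MolfB6 only. The 11 had a median length of 1280 bases, against 620 for the members with fractional estimates, and a median of 0.72 TPM against 3.18. Their reads ran from 10 to 153 in a SpretB6 library, and 6 of the 11 had 0 reads in all 12 others. None of them was among the members of 100 TPM or more, so those members all had a fractional estimate in at least 1 library. With 2.14% whole, so did nearly all other transcripts present in SpretB6. How much of a level rested on divided reads is not known.

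ENSMUST00000121086.2, of 1218 bases, had the most reads among these 11. It had 115 reads in SpretB6 1, 153 in SpretB6 3, 151 in SpretB6 5 and 103 in SpretB6 6, or 2.47 ± 0.0814 TPM (SD, n = 4), and 1 read each in PwkB6 1 and PwkB6 6. ENSMUST00000122108.2, of 1629 bases, had 99, 91, 74 and 58 reads in the same order, or 1.11 ± 0.27 TPM, and 1 read in CastB6 3. SpretB6 1 was highest for this transcript in TPM, at 1.51 against 0.895 to 1.03 in the other 3.

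ENSMUST00000208100.2, of 246 bases, had 61, 69, 69 and 46 reads in SpretB6 1, 3, 5 and 6, or 12.2 ± 0.987 TPM, and 0 reads in the 12 others. ENSMUST00000119030.2, of 2042 bases, had 44, 63, 68 and 43 reads, or 0.578 ± 0.0527 TPM. It had 1 read in each of 7 other libraries, all 4 of CastB6 among them, so a low level outside SpretB6 was seen for it in more libraries than for the other 3 transcripts named from this set.

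Outside SpretB6 the members were at 0 in 1584 of 1920 values, or 82.5%. The highest of the 12 others was 0 in 63 members, 1 read in 39, 2 in 26 and 3 in 32. The few reads numbered 166 in CastB6, 167 in MolfB6 and 164 in PwkB6, or 0.653, 0.658 and 0.707 CPM, so no other cross held most of them. The rule capped each of these values at 3 reads and dropped transcripts with more in any cross. The near-even split is therefore partly built in, and nothing is read from it. A library of the 12 had a read for 21 to 36 of the members.

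The limits cut through a continuous range. Just inside, ENSMUST00000200446.2 had 11, 15, 12 and 10 reads in SpretB6 1, 3, 5 and 6, and ENSMUST00000210031.2 had 29, 26, 10 and 17, each with 0 in the 12 others. Just outside, ENSMUST00000117402.2 had 2774 to 4784 reads in SpretB6 and 4 in both PwkB6 5 and PwkB6 6, and ENSMUST00000050143.5 had 2793 to 4169 in SpretB6 and 4 in MolfB6 3. In all, 26 transcripts present in SpretB6 missed the limit by a highest value of 4 reads elsewhere, and 149 had 4 to 10. Of the 160 members, 17 had a value above 3 before rounding and 1 had a value under 10, which leaves 142 with unrounded estimates.

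The members kept their order between SpretB6 libraries. Spearman's rho of TPM across the 160 members was 0.966 to 0.977 over the 6 pairs of SpretB6 libraries, where the points share the members' lengths and the libraries' processing. The coefficient of variation of TPM over the 4 libraries had a median of 17.1%, and the highest library exceeded the lowest by a median of 1.47-fold. The ratio was over 2 in 30 members and over 4 in 2. These 2, named after their values were seen, were ENSMUST00000123881.9, at 0.383, 1.95, 1.00 and 1.28 TPM in SpretB6 1, 3, 5 and 6, and ENSMUST00000182906.2, at 0.759, 0.208, 0.947 and 0.748 TPM.

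At like numbers of reads the members varied less between SpretB6 libraries than the other transcripts present there, as medians and with no test. The median coefficient of variation was 23.5% against 28.8% up to 30 mean reads, and 21.3% against 27.4% over 30 to 100. It was 10.7% against 21.2% over 100 to 300, 10.1% against 14.8% over 300 to 1000, and 4.98% against 8.72% over 1000 reads, where there were 12 members. The comparison with transcripts of up to 1000 bases gave medians of 28.1%, 27.1%, 20.6%, 13.9% and 8.57%, so the order was the same in each class at the members' usual lengths. In 7 of the 160 members 1 SpretB6 library lay far from the other 3, where a rate of 1 in 20 gives 8.

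**Figure D4:**
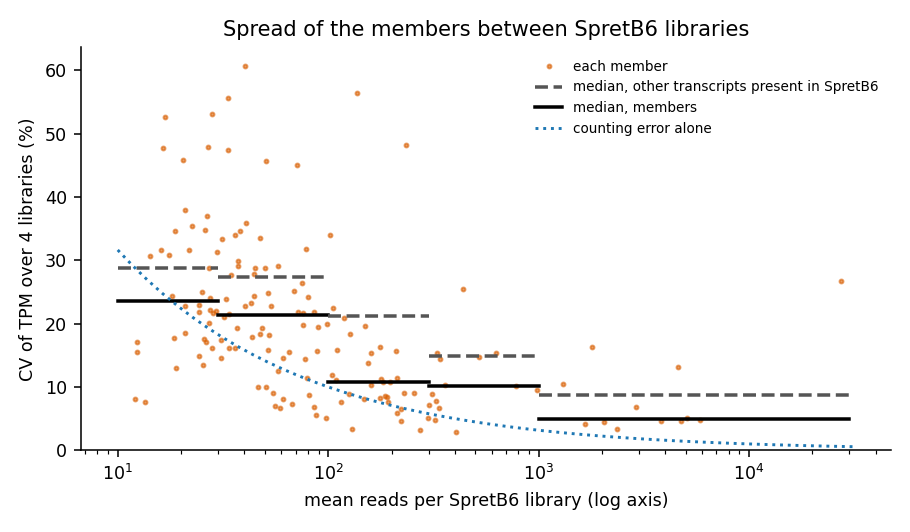
Coefficient of variation (CV) of TPM over the 4 SpretB6 libraries against mean reads on a log axis, with 1 point per member. Solid lines are the members' medians in 5 classes of reads, dashed lines those of the other transcripts present in SpretB6, and the dotted curve is the CV that counting error alone would give. The solid line lies below the dashed line in each class, and ENSMUST00000183090.2 stands alone at the far right.

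The choice of members was then repeated without 1 library, and that library was read. Without a SpretB6 library, 163 to 173 transcripts were chosen, and 92.5% to 98.2% of these had at least 10 reads in the library left out. By library left out, the share was 93.6% for SpretB6 1 and for SpretB6 5, against 96.1% and 97.8% of all transcripts with at least 10 reads in the other 3 SpretB6 libraries. It was 98.2% for SpretB6 3 and 92.5% for SpretB6 6, against 98.2% and 92.6%, so the members' share was lower in the first pair of libraries and close to the background in the second pair. Members had fewer reads than the other transcripts present in SpretB6, with medians of 63.25 against 202.25. A limit of 10 reads is therefore harder for them to meet, and these shares are not like for like with their background. Without 1 of the 12 others, 162 to 171 were chosen, and 93.6% to 98.8% had at most 3 reads in it, against 2.55% to 4.12% of all transcripts present in SpretB6. That last background is mostly transcripts present in every cross. It is not like for like with transcripts already chosen as absent in the remaining libraries.

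Leaving a whole cross out of the choice asks how many of the transcripts that tell SpretB6 from the remaining crosses are also absent there. Without CastB6, 209 transcripts were chosen, of which 160 were absent in CastB6, 10 present in all 4 of its libraries and 39 between the limits. Without MolfB6 the numbers were 191, with 160 absent, 3 present and 28 between, and without PwkB6 198, with 160 absent, 3 present and 35 between. These absences of 76.6%, 83.8% and 80.8% stand beside 0.842%, 0.821% and 0.758% of all transcripts present in SpretB6. The 160 are the members each time, so these shares restate how many more transcripts the looser rule let in. The background is not like for like, since 32231 of its transcripts were present in all 4 crosses.

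Under the same rule the other crosses had fewer transcripts of their own, 21 in CastB6 (0.018% of those listed), 14 in PwkB6 (0.012%) and 4 in MolfB6 (0.00343%). Their median lengths were 771 bases in CastB6, 855.5 in PwkB6 and 2905.5 in MolfB6. Version 2 was carried by 12 of the 21, 8 of the 14 and 2 of the 4. It was also frequent in transcripts that SpretB6 shared with some crosses and not with the rest. It was carried by 8 of 10 shared with CastB6 alone, 3 of 3 with MolfB6 alone and 3 of 3 with PwkB6 alone. It was carried by 7 of 8 shared with CastB6 and MolfB6, 11 of 13 with CastB6 and PwkB6, and 17 of 26 with MolfB6 and PwkB6. With the limits turned around, 14 transcripts were absent in SpretB6 and present in each other cross, with a sum of 624 ± 162 TPM in the 12 libraries (SD, n = 12). No relation between the sets was tested.

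**Figure D5:**
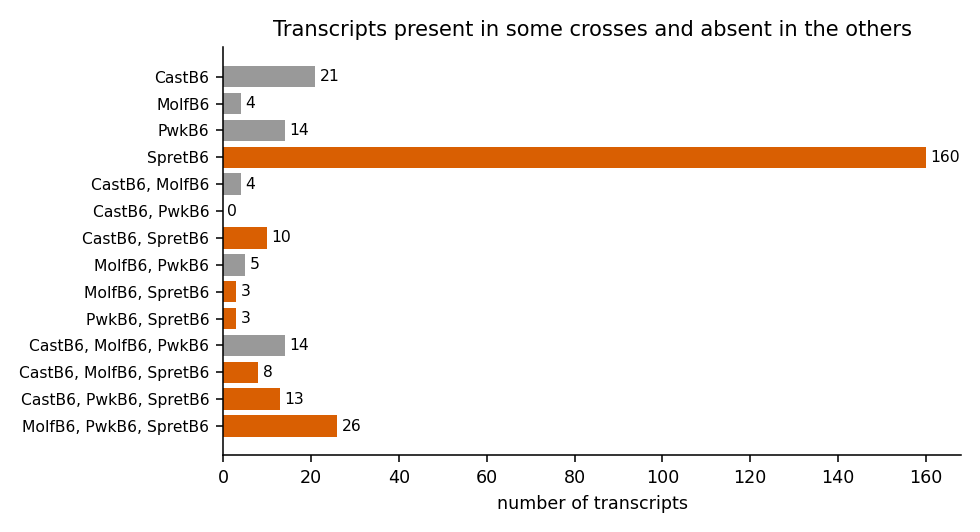
Number of transcripts with at least 10 reads in every library of the crosses named on the y axis and at most 3 in every library of the other crosses. Orange bars include SpretB6. SpretB6 alone has 160, and the next pattern, present in MolfB6, PwkB6 and SpretB6, has 26.

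Across all 56721 transcripts that passed a filter on low counts, edgeR's quasi-likelihood test called 4029, or 7.1%, different in SpretB6 from the mean of the other crosses at a Benjamini-Hochberg adjusted p under 0.05, and 2453, or 4.32%, higher. DESeq2 called 6566 different. Of the 160 members, 157 passed the filter, which they did through their SpretB6 reads, and all 157 were among edgeR's calls. DESeq2 called 154 of them higher, and edgeR with a replicate block 108. The rule chose on the same reads, so nothing is read from these counts.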

How the data were processed

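The 16 libraries are ribodepleted total RNA of 4 F1 crosses, grouped by title. Per the file headers, each deposited table holds length, effective length, TPM and estimated counts per transcript. The authors' TPM values were used as deposited. The deposited estimated counts need not be whole and were rounded before the rule and the tests. Salmon, DESeq2 and the build mm10 are named in the submitters' processing notes. Not given in the sources used here are versions, the transcript set and how strand and the non-C57BL/6J allele were handled.

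The members and lists were chosen with earlier results of these data known. The transcripts named are the 6 members of highest mean TPM in SpretB6, the 4 with the most reads among those with whole estimates, the longest and shortest, and 2 on each side of the limits. The reference table, of GRCm38.p6, carries no Ensembl IDs, so markers and gene lists were not used. The version suffix above 1, planned as a measure, holds for 99.9% of transcripts, and version 2 was added.

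Tables were made with pandas 2.3.3. The test was edgeR 4.0.16 (R 4.3.3) with filterByExpr (minimum count 10, minimum total 15), TMM and all 16 libraries in 1 fit; the script was tested on simulated data. Counts of 0 were taken to allow 3 reads, and Poisson intervals are exact at 95%; both cover counting error only. A library far from the other 3 was sought with Dixon's ratio at 0.829. Alternatives were other limits, CPM, unrounded values, each library left out, DESeq2 1.42.0, limma 3.58.1 voom, no filter and a replicate block. The alternatives without a cross and without the highest member were chosen after seeing the data.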

Additional observations from a re-analysis of the deposited data

Results flagged for a closer look

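7 transcripts failed the rule through 1 library alone, with at least 10 reads in that library and at most 2 in the other 11 outside SpretB6. In each, that library lay far from the other 3 of its cross. ENSMUST00000004430.14, of 4175 bases, stood at 2.55 TPM (477 reads) in PwkB6 6 and at 3.08 to 4.40 TPM in SpretB6. ENSMUST00000098979.11 stood at 0.597 TPM (183 reads) in PwkB6 3, and ENSMUST00000201781.4 at 0.839 TPM (133 reads) in CastB6 5. ENSMUST00000239125.2 stood at 0.374 TPM (74 reads) and ENSMUST00000194149.6 at 0.278 TPM (10 reads) in MolfB6 2. ENSMUST00000177532.2 stood at 1.14 TPM (15 reads) in PwkB6 1, with up to 2 reads in the other libraries, and ENSMUST00000129174.8 at 0.437 TPM (15 reads) in PwkB6 5. Apart from ENSMUST00000177532.2, each had 0 reads in the other 11 libraries. They were found by their difference from the other libraries, so the flag is built in, and where 3 libraries tie at 0 any value above 0 is flagged. Among the 25 other groups of 4 libraries searched, namely the SpretB6 TPM of the named members and their sums per cross, 0 were flagged, where about 1 in 20 is flagged by chance.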

How the results depend on the processing

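The number of members depended on the limits. It was 72 with at least 50 reads for presence, 63 with 0 reads for absence and 293 when absence meant at most 10 percent of the lowest SpretB6 library, of which 143 were among the 160. It was 142 with limits on CPM, 135 of them shared, and 142 without rounding. Leaving out each library gave 162 to 173. At the limit of 50 reads the median length was 518.5 bases and 2.78% had whole estimates. The summed TPM was 3031 with 0 reads for absence, 4964 with limits on CPM, 6411 without the PwkB6 libraries in the rule and 3487 without the highest member. All other values of length, version and whole estimates under the alternatives stayed within the 95% intervals of the main ones, and the other sums within 1 SD. These intervals treat the 160 members as independent draws, and the alternative sets consist mostly of the same members. They serve only as a scale for the size of a change. All 75 values of the named transcripts moved by less than 1 SD. Most of them are means without 1 SpretB6 library, set against the SD of the same libraries. Leaving out 1 of so few values cannot move their mean by 1 SD, so nothing is read from these. The sums without a SpretB6 library are limited in a similar way, apart from transcripts newly let in. Only the values of TPM rescaled by the TMM factors were free of this limit. DESeq2 called 6566 transcripts against 4029 by edgeR, and leaving out 1 library gave 2688 to 4678. With a replicate block edgeR called 3090, among them 108 of the 157 members. The labels do not say whether the numbers pair the libraries. Deviations of same-numbered libraries of different crosses had correlations from -0.067 to 0.13 over 21 pairs, with 1 pair over 0.1. For 5 of 16 libraries the closest one of another cross carried the same number. With 4 libraries per cross these values cannot settle whether the numbers stand for a shared preparation. The cause of these changes was not tested. Depth limits the members near 10 reads, and the error of dividing reads among transcripts is in none of the values.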
